A study of Homo sapiens with 4 samples.

Results

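The genes described here encode the nuclear share of the mitochondrial respiratory chain and ATP synthase. They are every gene of the deposited gene table whose symbol begins with NDUF, UQCR, ATP5, SDHA to SDHD or COX4 to COX8, plus CYC1 and CYCS, which gave 99 of 14416 genes. Symbols, and no measured value, chose them, so they also take in 8 NDUFAF and 4 SDHAF genes, which encode assembly factors of complexes I and II, and ATP5IF1, the inhibitor protein of ATP synthase. The other 86 encode structural subunits or cytochrome c.

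The cells were OMM2.3, an established human uveal melanoma line labelled wild type, kept for 24 h with meclofenamic acid (MA) or with its DMSO control (NC). Background for the drug is that it is a nonsteroidal anti-inflammatory agent and an inhibitor of FTO, an enzyme that removes N6-methyladenosine (m6A) from RNA. From fragmented poly(A) RNA, an input library and a library of the fragments captured on m6A beads were sequenced. Each condition had 1 input library, which gave transcript levels as FPKM (fragments per kilobase of gene length, scaled to library size), and 1 captured library, the immunoprecipitate, which gave a list of m6A peaks. With 1 library per group, there is no replicate check and no p-value, and each difference compares these libraries. In bulk RNA, fewer cells of a kind and less RNA per cell cannot be told apart.

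The totals behind the FPKM scale, recovered from the values, were 41630895 reads or fragments in the MA input and 37041597 in the NC input. The peak lists held 19943 peaks for MA and 22086 for NC. All 7 melanocyte lineage markers checked were detected, with a summed level of 3172 FPKM in MA and 7307 FPKM in NC. Of 12 markers of other cell types (immune, endothelial, epithelial and fibroblast), the gene table held 8, and LUM, at 12.0 FPKM in MA and 4.96 FPKM in NC, was the 1 that reached 1 FPKM. The melanocyte lineage list was lower in MA in 7 of 7 genes, and its part in the values below was not tested.

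The respiratory chain passes electrons from NADH and succinate to oxygen. Complex I takes them from NADH and complex II from succinate, complex III hands them to the small carrier cytochrome c, and complex IV passes them to oxygen. Complexes I, III and IV pump protons across the inner mitochondrial membrane, and ATP synthase, or complex V, uses the returning protons to make ATP. Most subunits are encoded in the nucleus, and a core set is encoded in mitochondrial DNA. The transcription factors NRF1 and GABP, an ETS family protein, are known to bind promoters of many of the nuclear genes. m6A is written on mRNA in the nucleus, mostly in long exons and near stop codons and in 3' UTRs.

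Promoter windows of RefSeq (GRCh38.p14), which span 250 bases before to 50 bases after the annotated start, could be matched to 83 of the 99 genes, 2 of them by an older symbol. The core CGCATGCG, a palindrome bound by NRF1, stood in 11 of the 83 windows (13.3%), against 598 of 27305 windows of the whole RefSeq table (2.19%) and 4.22% of the windows of genes that reached 1 FPKM. The ETS core CCGGAA, or TTCCGG on the other strand, stood in 34 of the 83 (41.0%), against 17.6% of all windows and 32.3% of those of genes at 1 FPKM. Both cores were present in 6 windows and neither in 44. ATP synthase genes held the NRF1 core in 4 of 13 windows and complex III genes in 0 of 7. A window from 4 complexes shows how the core lies in its context, with the core in capitals and 11 bases on each side.
NDUFS7 (chr19:1383822-1383851, + strand): gttccggtttcCGCATGCGctccgagccgc
SDHD (chr11:112086753-112086782, + strand): agctgtgtttgCGCATGCGcgacgggtgtg
COX6A1 (chr12:120437883-120437912, + strand): cggagggcacaCGCATGCGcacgaaggaaa
ATP5MC2 (chr12:53676106-53676135, - strand): ggcccgggtcaCGCATGCGctgagccttcc
These 4 genes encode a core subunit of complex I, a membrane anchor of complex II, a small complex IV subunit and a source of the c subunit of ATP synthase. A match describes the letters of a window and is not evidence of binding. The transcript levels of the genes with and without each core are given after those of the complexes.

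Most of these genes were strongly expressed, and their levels differed modestly between MA and NC. Of the 99 genes, 95 reached 1 FPKM in at least 1 input and were compared, and ATP5MGL, COX6B2, COX8C and NDUFA4L2 stayed below it. The median level was 74.4 FPKM in MA and 74.3 FPKM in NC, against 10.4 and 8.84 FPKM over all 10564 genes compared. Their summed level was 8605 FPKM in MA and 10216 FPKM in NC. By mean level, 56 of the 95 lay above the 90th percentile of all genes compared, and 12 lay below the median.

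The difference is log2((MA FPKM + 1)/(NC FPKM + 1)), in which the added 1 shrinks the difference of low genes. No member was 2-fold or more higher in MA (0 of 95, against 10.3% of all genes compared), and 1 member, COX6A2, was 2-fold or more lower (1 of 95, against 2.98%). A difference below 0 was found in 65 of 95 members (68.4%), against 43.3% of all genes compared. Their median difference was -0.23, against 0.11 over all genes, so relative to the whole table it was -0.34. With the median of all genes set to 0, the table held 756 genes 2-fold or more higher and 439 lower, against 1087 and 315 on the deposited scale. The 10th percentile was -0.60 in the members and -0.60 over all genes, and the 90th percentile was 0.41 in the members and 1.01 over all genes. By counting error, the exact 95% interval of the ratio lay below 0 in 58 members and above 0 in 27, and it included 0 in 10. Such intervals were not computed for the other genes, so these counts have no background and do not set the members apart. These intervals use the smallest whole reads that fit both values and no added 1, and they cover counting error only, since reads copied by PCR are not independent molecules.

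**Figure D1:**
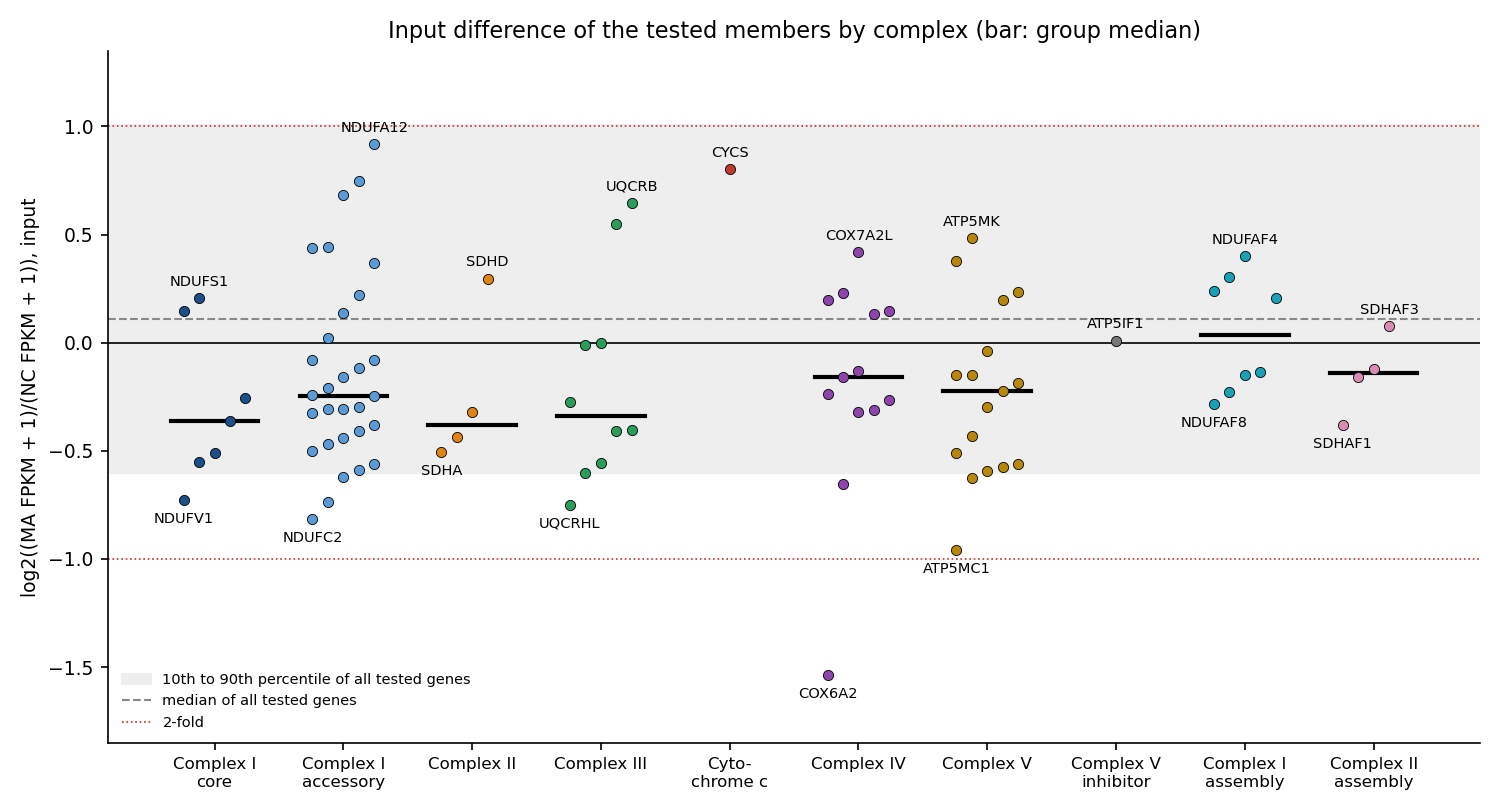
Input log2 difference, MA over NC, of the 95 compared members by complex, with each group's median as a bar, the 10th to 90th percentile of all genes compared in grey and 2-fold as dotted lines. The medians of complexes I to V lie between -0.38 and -0.16, below the dashed median of all genes at 0.11, and COX6A2 at -1.54 is the 1 point beyond 2-fold.

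Complex I, the NADH dehydrogenase, was lower in MA in 26 of its 37 subunits, with a median difference of -0.26. Its core subunits carry the flavin and the iron-sulfur clusters. NDUFV1, which binds NADH and the flavin, was at 98.6 FPKM in MA and 164 FPKM in NC, a difference of -0.73. NDUFS3 was at 65.2 FPKM in MA and 96.0 FPKM in NC (-0.55), and NDUFS7, a cluster-binding subunit, was at 46.6 FPKM in MA and 66.9 FPKM in NC (-0.51). NDUFS8, the core subunit with the highest mean level of both inputs, was at 136 FPKM in MA and 163 FPKM in NC (-0.26). The other 2 core subunits of the NADH-oxidising tip differed from NDUFV1 in sign, with NDUFV2 at 83.0 FPKM in MA and 74.9 FPKM in NC and NDUFS1 at 11.4 FPKM in MA and 9.77 FPKM in NC.

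Among the 30 accessory subunits of complex I, 21 were lower in MA and 9 higher. NDUFA12, an accessory subunit that takes the place of the assembly factor NDUFAF2 late in assembly, was at 62.2 FPKM in MA and 32.5 FPKM in NC, with a difference of 0.92 and an exact interval of the ratio from 0.75 to 1.13. NDUFA5 was at 5.77 FPKM in MA and 3.03 FPKM in NC (0.75), and NDUFB1 was at 101 FPKM in MA and 62.7 FPKM in NC (0.68). In the other direction, NDUFB9 was at 234 FPKM in MA and 391 FPKM in NC (-0.74), and NDUFA13, the accessory subunit with the highest level, was at 277 FPKM in MA and 417 FPKM in NC (-0.59). NDUFC2 was at 3.62 FPKM in MA and 7.15 FPKM in NC (-0.82), the lowest level in MA of all complex I subunits. NDUFC2 lies within a read-through gene, NDUFC2-KCTD14, in the RefSeq table, so its reads may be split between genes.

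By position in complex I, 8 genes were listed here for the N module, where NADH is oxidised. Of these, 3 were lower in MA, and their median of 0.08 became -0.03 with the median of all genes set to 0. Of the 5 genes listed here for the Q module, where ubiquinone is reduced, 4 were lower, with a median of -0.36. NDUFA5 was the exception among these 5. The other 24 subunits, mostly of the membrane arm, were lower in 19 cases, with a median of -0.30. The accessory N module subunit NDUFS4, mutated in Leigh syndrome, was at 36.5 FPKM in MA and 26.7 FPKM in NC (0.44). NDUFV3, another N module subunit, differed little, at 7.51 FPKM in MA and 7.37 FPKM in NC, and its interval of -0.07 to 0.12 included 0.

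Complex II, the succinate dehydrogenase of the citric acid cycle, was lower in MA in 3 of 4 subunits, with a median of -0.38. SDHA, which holds the flavin, was at 31.1 FPKM in MA and 44.5 FPKM in NC (-0.50). The iron-sulfur subunit SDHB was at 124 FPKM in MA and 168 FPKM in NC (-0.44). The membrane anchors differed in sign, with SDHC at 55.6 FPKM in MA and 69.7 FPKM in NC (-0.32) and SDHD at 22.5 FPKM in MA and 18.1 FPKM in NC (0.30).

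Complex III, the cytochrome bc1 complex, was lower in MA in 8 of 10 genes, with a median of -0.34, and in 6 of 10 after rescaling to TPM. The 2 core proteins that share an ancestor went opposite ways. UQCRC1 was at 126 FPKM in MA and 192 FPKM in NC (-0.60), whereas UQCRC2 was at 109 FPKM in MA and 74.0 FPKM in NC (0.55). The catalytic CYC1 was at 59.1 FPKM in MA and 87.3 FPKM in NC (-0.55), and the Rieske protein UQCRFS1 was at 38.9 FPKM in MA and 51.8 FPKM in NC (-0.40). UQCRB, a ubiquinone-binding subunit, was at 19.7 FPKM in MA and 12.2 FPKM in NC (0.65). UQCRH, the complex III gene with the highest level, was at 294 FPKM in both inputs. UQCRHL, a copy of UQCRH close to it in sequence, was at 9.64 FPKM in MA and 16.9 FPKM in NC (-0.75), a value that is uncertain because reads of such copies can be split between them.

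CYCS, the carrier between complexes III and IV that also triggers apoptosis once released from mitochondria, was higher in MA. Its level was 44.3 FPKM in MA and 24.96 FPKM in NC, a difference of 0.80, with an exact interval of 0.78 to 0.88 for the ratio. On this scale it came after NDUFA12 and before NDUFA5, and NDUFA5 was above CYCS in TPM, with an added 0.1 and by the ratio with nothing added.

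Complex IV, cytochrome c oxidase, was lower in MA in 8 of the 13 genes compared, with a median of -0.16, which was -0.08 in TPM and -0.27 with the median of all genes set to 0. COX6A2, the heart and skeletal muscle form of subunit VIa, was at 3.75 FPKM in MA and 12.8 FPKM in NC, a difference of -1.54. Only 29 reads in MA and 88 in NC were needed to give these values, and the interval of the ratio ran from -2.43 to -1.15. Its widely expressed counterpart COX6A1, whose promoter window is shown above, was at 300.5 FPKM in MA and 329 FPKM in NC (-0.13). COX6B1, which lies on the intermembrane side, was at 261 FPKM in MA and 412 FPKM in NC (-0.65), and its testis form COX6B2 was at 0.0916 FPKM in MA and 0.0386 FPKM in NC.

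The most abundant member of all was COX8A, with 513 FPKM in MA and 573 FPKM in NC (-0.16), and its relative COX8C was at 0.0443 FPKM in MA and listed at 0 in NC. COX7A2L, known for its part in joining complexes III and IV into supercomplexes, was at 82.2 FPKM in MA and 61.2 FPKM in NC (0.42). COX7A2 was at 63.2 FPKM in MA and 57.1 FPKM in NC (0.15), and COX7B was at 50.5 FPKM in MA and 59.6 FPKM in NC (-0.24). COX4I1 was at 125 FPKM in MA and 155 FPKM in NC (-0.31). COX5A, at 93.0 FPKM in MA and 116 FPKM in NC, and COX5B, at 176 FPKM in MA and 211 FPKM in NC, differed by -0.32 and -0.26. NDUFA4, now counted as a complex IV subunit, was at 104 FPKM in MA and 88.5 FPKM in NC (0.23), whereas its hypoxia-responsive relative NDUFA4L2 was at 0.0404 FPKM in MA and 0.114 FPKM in NC.

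ATP synthase was lower in MA in 13 of 17 genes, with a median of -0.23, which was -0.15 in TPM. All 5 genes of the catalytic F1 head were lower, with a median of -0.51. Of these, ATP5F1B, the catalytic beta subunit, was at 309 FPKM in MA and 441 FPKM in NC (-0.51), and ATP5F1D, the delta subunit of the central stalk, was at 91.2 FPKM in MA and 141 FPKM in NC (-0.62). ATP5ME, a small membrane subunit, was at 296 FPKM in MA and 447 FPKM in NC (-0.59).

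The 3 genes for the c subunit encode the same mature protein with different import signals, and all 3 were lower in MA. ATP5MC1 was at 86.6 FPKM in MA and 169 FPKM in NC, a difference of -0.96, and the interval of its ratio ran from -1.05 to -0.89. ATP5MC3 was at 47.2 FPKM in MA and 70.8 FPKM in NC (-0.58), and ATP5MC2 was at 83.8 FPKM in MA and 95.5 FPKM in NC (-0.19). Summed over the 3 genes, the level was 218 FPKM in MA and 336 FPKM in NC.

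The peripheral stalk, which holds the F1 head in place, was higher in MA in 3 of 4 genes, with a median of 0.22, which was 0.10 with the median of all genes set to 0. ATP5PD was at 145 FPKM in MA and 112 FPKM in NC (0.38), ATP5PF was at 39.0 FPKM in MA and 33.0 FPKM in NC (0.24), and ATP5PO, the exception, was at 128 FPKM in MA and 149.7 FPKM in NC (-0.23). ATP5MK, a small subunit that supports the dimer, was at 104 FPKM in MA and 74.3 FPKM in NC (0.48). ATP5IF1, which inhibits ATP hydrolysis by the enzyme, was at 111 FPKM in both inputs, with an interval of -0.07 to 0.09, and its difference of 0.01 became -0.10 with the median of all genes set to 0.

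**Figure D2:**
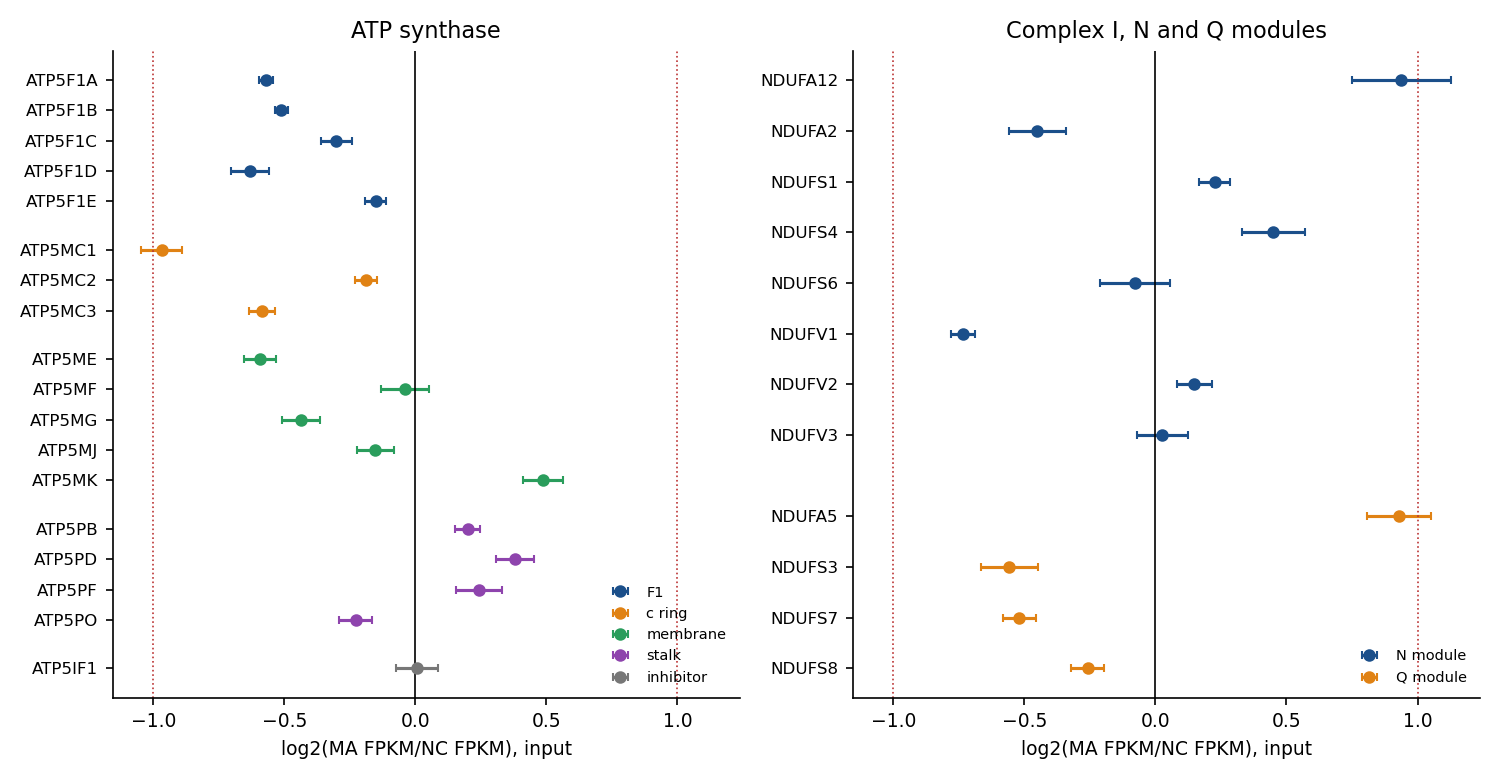
Log2 of the MA over NC input ratio, without an added 1, for each ATP synthase gene (left) and for complex I genes (right). The right panel holds the 8 genes listed for the N module and 4 of the 5 listed for the Q module. Bars are exact 95% intervals for counting error from the smallest reads that fit. The 5 F1 genes and 3 c subunit genes lie left of 0, 3 of 4 stalk genes lie right of it, and NDUFA12 and NDUFA5 lie farthest to the right.

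The assembly factors of complexes I and II were expressed at lower levels than the subunits, with medians of 9.71 FPKM in MA and 10.1 FPKM in NC against 82.6 FPKM in MA and 89.3 FPKM in NC for the structural genes. The 8 NDUFAF genes were split 4 and 4 around 0, and their median of 0.04 became -0.08 with the median of all genes set to 0. NDUFAF4 was at 6.95 FPKM in MA and 5.02 FPKM in NC (0.40), NDUFAF2 was at 30.1 FPKM in MA and 24.2 FPKM in NC (0.30), and NDUFAF8 was at 53.0 FPKM in MA and 64.6 FPKM in NC (-0.28). NDUFAF3 had the highest level of these, at 77.3 FPKM in MA and 84.9 FPKM in NC. Of the SDHAF genes, which insert the clusters and flavin of complex II, SDHAF1 was at 9.54 FPKM in MA and 12.7 FPKM in NC (-0.38), SDHAF4 was at 3.45 FPKM in MA and 3.97 FPKM in NC (-0.16), and SDHAF2 was at 35.0 FPKM in MA and 38.1 FPKM in NC (-0.12).

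**Figure D3:**
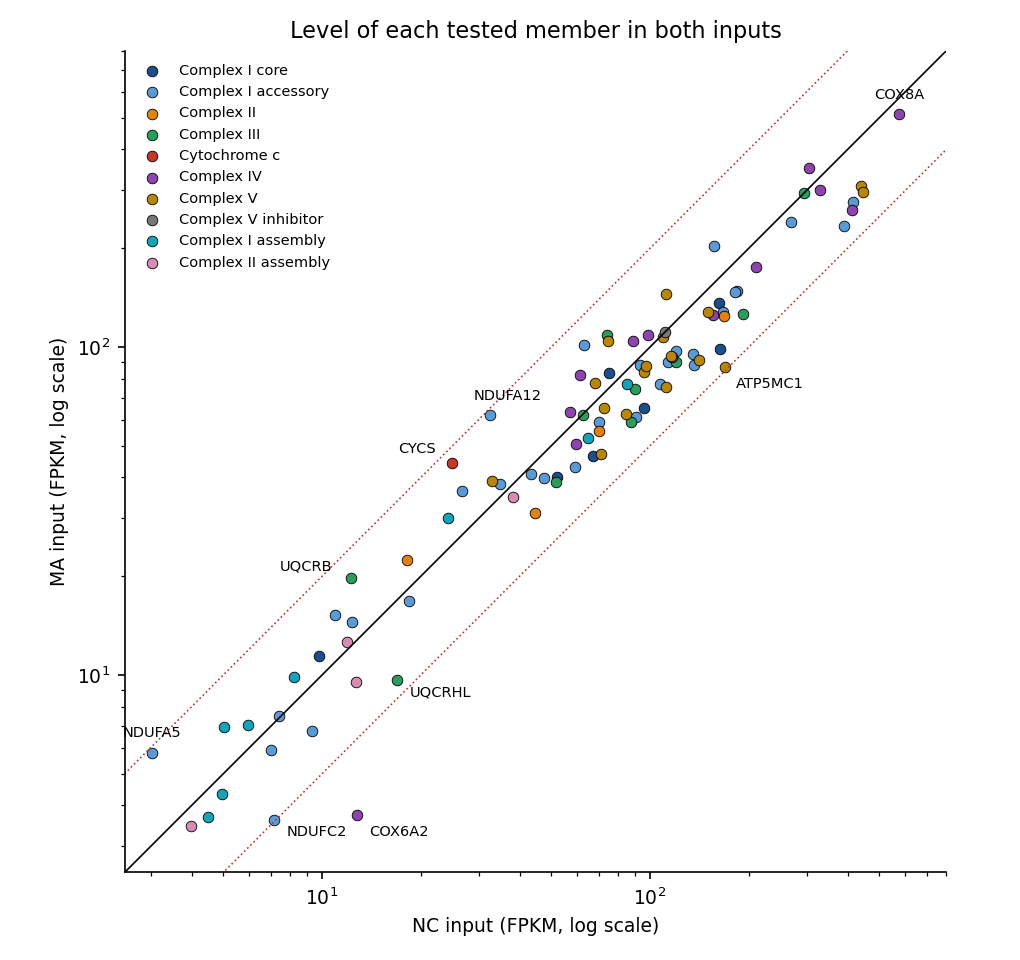
Level of each of the 95 compared members in the MA input (vertical, FPKM, log scale) against the NC input (horizontal, FPKM, log scale), with the line of equal values and dotted lines at 2-fold. Most points above 50 FPKM lie on or under the line of equal values, COX8A is highest at 513 and 573 FPKM, and COX6A2 lies outside the dotted lines.

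Level and gene length were set beside the difference. Across 95 members, Spearman's rho between mean level and difference was -0.31, and across all 10520 genes with a recovered length it was -0.26. Between gene length and difference, rho was 0.17 in members and 0.19 in all genes. These are correlations across genes that share 1 pair of libraries, and those with length are weak. By level, the median difference was -0.16 in the 12 members under 10 FPKM, against 0.29 in other genes, and 0.14 in the 21 members from 10 to under 50 FPKM, against -0.00 in other genes. It was -0.21 in the 28 members from 50 to under 100 FPKM, against -0.23 in other genes, and -0.31 in the 34 members at 100 FPKM or more, against -0.20 in other genes. The recovered length, which is the shortest that fits, had a median of 1125 bases in members and 3492 bases in all genes, and 77 members were among the genes of at most 2450 bases, the shortest of 3 equal bins of all genes. In that bin, 72.7% of members and 52.8% of all genes had a difference below 0. Among short genes with a mean level of 50 FPKM or more, 45 of 56 members (80.4%) and 542 of 778 other genes (69.7%) did, with medians of -0.30 and -0.25. The parts of length and level in the members' differences were not tested.

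Members with the NRF1 core in their promoter window had a median difference of -0.13 over 11 genes, 7 of them below 0, and those without it had a median of -0.21 over 69 genes. With the ETS core, the median was -0.20 over 34 genes, and without it -0.17 over 46. The ranges of the sets overlapped.

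Related gene lists outside the members were also compared. The 41 other assembly factors compared had a median difference of 0.03, which became -0.08 with the median of all genes set to 0, and 20 of them were lower in MA. TMEM126B, a complex I assembly factor, was at 28.6 FPKM in MA and 13.1 FPKM in NC (1.07), LYRM7, of complex III, was at 1.79 FPKM in MA and 0.629 FPKM in NC (0.78), and SCO2, a copper chaperone of complex IV, was at 6.78 FPKM in MA and 12.4 FPKM in NC (-0.78). The 17 genes of the citric acid cycle and pyruvate dehydrogenase had a median of -0.03, which became 0.05 in TPM. Of the 17, 9 were lower in MA, down to a difference of -0.58. The largest absolute differences were above 0. SUCLA2 was at 14.4 FPKM in MA and 7.62 FPKM in NC (0.84). PDHX was at 21.0 FPKM in MA and 11.9 FPKM in NC (0.76), and DLD at 22.1 FPKM in MA and 14.4 FPKM in NC (0.59).

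The 13 genes of coenzyme Q synthesis had a median of 0.05, which became -0.07 with the median of all genes set to 0. COQ10A was at 6.97 FPKM in MA and 13.9 FPKM in NC (-0.90), its relative COQ10B at 14.1 FPKM in MA and 7.28 FPKM in NC (0.87), and the kinase-like COQ8A at 6.07 FPKM in MA and 11.3 FPKM in NC (-0.80). Among 11 regulators of mitochondrial biogenesis, the median was -0.17, which was -0.11 in TPM and -0.28 with the median of all genes set to 0. The coactivator PPARGC1B was at 4.03 FPKM in MA and 12.1 FPKM in NC (-1.38). GABPB1, a subunit of the ETS factor GABP, was at 7.00 FPKM in MA and 3.17 FPKM in NC (0.94), and TFAM, which packages and transcribes mitochondrial DNA, was at 5.90 FPKM in MA and 2.66 FPKM in NC (0.92). The 77 mitochondrial ribosomal protein genes had a median of -0.07, which was -0.0012 in TPM and -0.18 with the median of all genes set to 0. The 81 cytosolic ribosomal protein genes had one of -0.06, which became 0.02 in TPM. The subunits encoded in mitochondrial DNA were not in the gene table, and their levels were not analysed here.

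m6A peaks were listed in fewer of these genes than in other genes of either list. Of the 95 members compared, 36 had a peak in the MA list (37.9%, against 80.0% of all genes compared) and 40 had one in the NC list (42.1%, against 83.3%). Both lists held a peak in 30 members (31.6%, against 76.0%), the MA list alone in 6 (6.32%, against 4.04%) and the NC list alone in 10 (10.5%, against 7.29%). The larger numbers in NC did not hold with the NC list cut to the length of the MA list by fold. There, 36 members had a peak in MA and 31 in NC, with 10 in MA alone and 5 in NC alone. The shares over all genes compared were then 80.0% in MA and 78.9% in NC. Shares with a peak in a single list alone were not computed over all genes in that setting. The 4 members below 1 FPKM had no peak. At least 1 list held a peak in 46 of the 95 members compared, against 9223 of all 10564 genes compared. In all, 53 of the 99 members had a peak in neither list, 49 of them among the 95 compared. Of these 53, 7 were above 200 FPKM in both inputs, namely COX7C, COX8A, ATP5F1B, ATP5ME, NDUFA13, COX6B1 and NDUFB9. A gene without a listed peak is not shown to lack m6A.

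The complexes differed among themselves. ATP synthase genes had a peak in 2 of 17 cases in MA and 4 of 17 in NC, complex IV genes in 2 of 13 in MA and 2 of 13 in NC, and complex II genes in 0 of 4 in MA and 1 of 4 in NC. Complex I subunits had one in 14 of 37 cases in MA and 17 of 37 in NC, and complex III genes in 6 of 10 in MA and 6 of 10 in NC. The NDUFAF and SDHAF assembly factors had a peak in 10 of 12 cases in MA and 8 of 12 in NC. The other assembly factors had one in 33 of 41 cases in MA and 34 of 41 in NC, mitochondrial ribosomal protein genes in 62 of 77 in MA and 61 of 77 in NC, and cytosolic ribosomal protein genes in 23 of 81 in MA and 27 of 81 in NC.

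**Figure D4:**
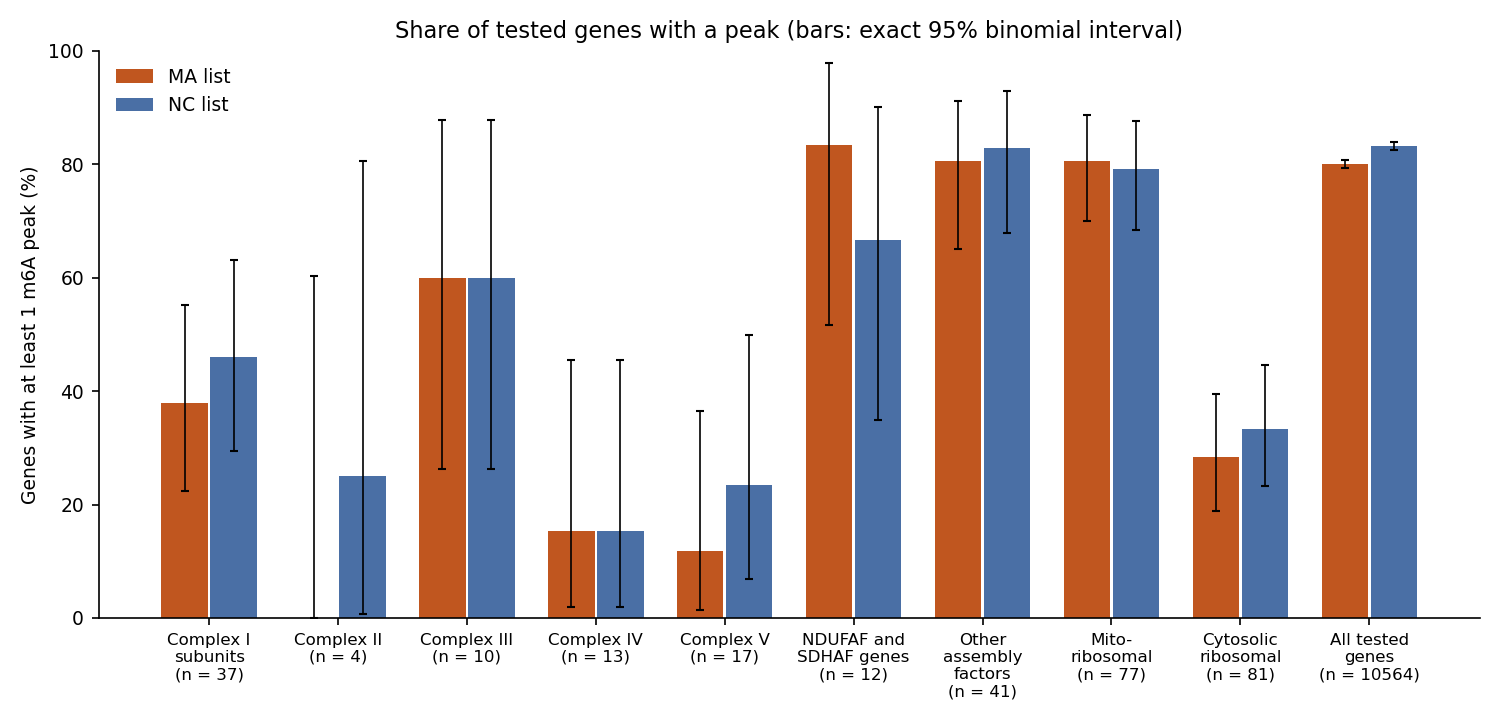
Share of compared genes with at least 1 m6A peak in the MA list and in the NC list, by complex, for related gene lists and for all genes compared, with exact 95% binomial intervals that cover counting error only. Complexes II, IV and V and the cytosolic ribosomal protein genes lie at or below 33.3% in both lists, and the assembly factors, the mitochondrial ribosomal protein genes and all genes lie at or above 66.7% in both.

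Short and highly expressed genes had fewer peaks in the whole table too. Among genes with a mean level of 100 FPKM or more, 8 of 34 members (23.5%) had a peak in MA and 12 (35.3%) in NC, against 53.3% in MA and 60.4% in NC of the 553 other genes. Among short genes at 50 FPKM or more, with a length of at most 2450 bases, the shares were 25% in MA and 35.7% in NC for the 56 members, against 50.9% in MA and 59.1% in NC for the 778 other genes. In the longest of the 3 bins, 6 of 7 members had a peak in MA and 5 of 7 in NC, against 92.2% in MA and 93.0% in NC of all genes there. How far length and level account for the low share was not tested.

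**Figure D5:**
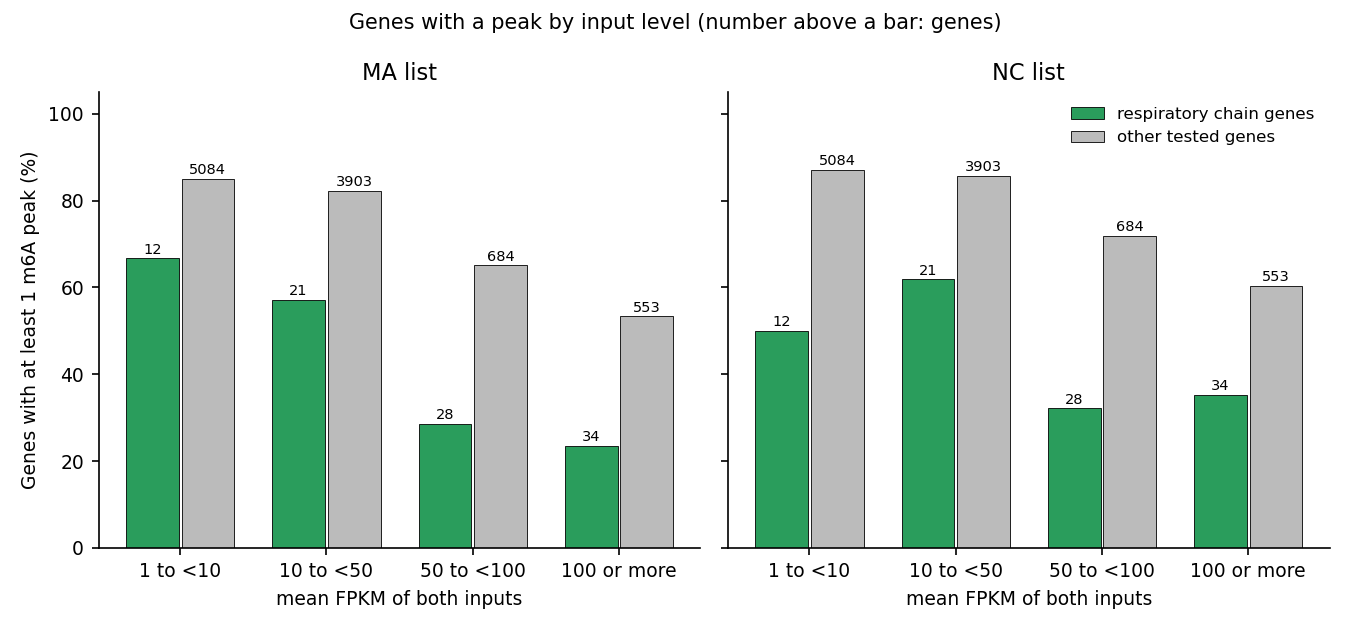
Share of genes with at least 1 m6A peak in the MA list (left) and the NC list (right) by mean input level, for respiratory chain genes and for the other genes compared, with the number of genes above each bar. At 100 FPKM or more, the members reach 23.5% in MA and 35.3% in NC, below the other genes at 53.3% and 60.4%.

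The members' peaks numbered 44 in MA and 50 in NC. The authors' fold enrichment of immunoprecipitate over input, used here only to describe peaks within their own list, had a median of 2.52 in the members' MA peaks, against 3.07 in all MA peaks, and 2.54 in their NC peaks, against 3.57 in all NC peaks. Of the members' peaks, 10 of 44 in MA and 16 of 50 in NC lay above their list's median. By the authors' annotation, 16 of 44 MA peaks (36.4%, exact 95% interval 22.4 to 52.2%) and 19 of 50 NC peaks (38%, 24.7 to 52.8%) lay in the 3' UTR, against 42.9% in MA and 42.2% in NC of all peaks. The start codon held 4 of 44 in MA and 6 of 50 in NC, against 4.78% in MA and 6.06% in NC of all peaks. The stop codon held 0 of 44 in MA, which allows a share of up to 8.04%, and 2 of 50 in NC. Over all peaks it held 3.45% in MA and 3.54% in NC. The 5' UTR held 8 of 44 in MA and 12 of 50 in NC (24%), against 14.9% and 14.4% of all peaks. Peaks annotated as exon were 16 of 44 in MA and 11 of 50 in NC (22%), against 33.97% and 33.8% of all peaks. Each of these shares of all peaks lay within the members' exact 95% interval. The peaks' exonic length had a median of 248.5 bases in MA and 249 bases in NC, against 300 and 299 bases over all peaks. They lay within a single exon in 38.6% of cases in MA and 40.0% in NC, against 55.9% in MA and 59.8% in NC of all peaks.

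The members with the highest fold enrichment were taken as 5 genes in each list, with the peak in the 3' UTR in 4 of 5 in MA and 3 of 5 in NC. In the MA list these were SDHAF1 with a fold of 6 (chr19:35995628-35996263 in GRCh38.p13, 3' UTR), NDUFC1 and ATP5MC3 with 4.67, UQCR11 with 4.43 and SDHAF2 with 3.42. In the NC list they were NDUFAF1 with 11, SDHC with 10, ATP5MC3 with 7.33, and NDUFAF6 and NDUFV3 with 7.00. In the NC input, NDUFAF1 was at 4.94, NDUFAF6 at 4.49 and NDUFV3 at 7.37 FPKM, and SDHC was at 69.7 and ATP5MC3 at 70.8 FPKM. A fold over few input reads is uncertain, and input reads at the peaks were not examined. SDHAF1 also had a peak of fold 5.5 in NC, at chr19:35995530-35996312, annotated to the stop codon, and it spans the MA peak. ATP5MC3, the c subunit gene with a peak, had it in its 3' UTR in both lists, at chr2:175176705-175176904 in MA and at chr2:175176606-175176954 in NC. ATP5MC1 and ATP5MC2 had none.

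The genes with the most peaks were NDUFAF6, with 3 in MA and 4 in NC, NDUFAF7, with 4 in MA and 1 in NC, and NDUFV3, with 2 in MA and 3 in NC. NDUFAF7 encodes a methyltransferase needed for the assembly of complex I. Of its 2 MA peaks annotated to the 3' UTR, the one at chr2:37247523-37248528 overlapped the NC peak and the one at chr2:37248777-37249027, with a fold of 2.75, did not. The other 2 MA peaks lay over peaks assigned to PRKD3, a neighbouring gene, so that their gene is uncertain. NDUFV3 has a long alternative exon, and its MA peaks of 350 and 748 bases of exonic length overlapped NC peaks, while its NC peak of fold 7.00 in the 3' UTR had no MA counterpart.

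Of the regions formed by the members' peaks, 31 of 44 in MA (70.5%, exact 95% interval 54.8 to 83.2%) overlapped an NC region, and 32 of 50 in NC (64.0%, 49.2 to 77.1%) overlapped an MA region. The shares over all regions were 79.6% in MA and 73.8% in NC. Of the 30 members with a peak in both lists, 28 had overlapping peaks, by genomic span with introns included. NDUFS1 and UQCR11 did not. UQCR11, a small complex III subunit, had an MA peak of 900 bases in its 3' UTR (chr19:1597219-1598118) and an NC peak of fold 1.72 annotated to the 5' UTR. NDUFS1 had its MA peak at chr2:206116164-206116363 and its NC peak at chr2:206122998-206123148, both annotated to the 3' UTR. In 6 genes, ATP5MJ, NDUFA8, NDUFB7, NDUFB8, NDUFS6 and UQCRFS1, a peak had the same start and end in both lists. Neither these 6 nor the 28 of 30 has a matching count over all genes beside it.

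The 6 members with a peak in the MA list alone were COX7A2L, NDUFA10, NDUFAF4, NDUFAF8, NDUFS4 and UQCRC2. Each had 1 peak, with folds from 1.52 in UQCRC2 to 2.64 in NDUFAF4, all under the MA list's median. The NDUFA10 peak, with a fold of 2.23, lay in a single exon at chr2:240011902-240012252, and NDUFA10 was at 6.76 FPKM in MA and 9.30 FPKM in NC.

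The 10 members with a peak in the NC list alone were ATP5F1D, ATP5PD, COX7B, NDUFA1, NDUFA12, NDUFA2, NDUFA3, NDUFS7, SDHC and UQCRH. SDHC had 3 such peaks, all in its 3' UTR, at chr1:161362820-161363019 with a fold of 2.00, at chr1:161363368-161363518 with 4.00 and at chr1:161366212-161366461 with 10.0. The last ranked at percentile 96.8 of the NC list. The input level of SDHC as a whole was 55.6 FPKM in MA and 69.7 FPKM in NC, and coverage at the peak sites was not examined. The other 9 genes had 1 peak each, with folds from 1.56 in NDUFA12 to 3.25 in NDUFA2, all under the NC list's median. The NDUFA3 peak lay over a peak of the neighbouring gene TFPT, and the gene it belongs to is uncertain. NDUFS7, whose promoter window is shown above, had its NC peak of fold 2.5 in the 3' UTR at chr19:1394636-1394786. A peak listed for a single condition is not shown to differ between conditions, since each list has its own threshold and 1 immunoprecipitate.

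CYCS had peaks in both lists. A peak around its start codon overlapped between them, with folds of 2.48 in MA and 3.36 in NC, and a second MA peak of fold 2.16 lay in its 3' UTR at chr7:25122891-25123041. NDUFA12, the member with the highest difference, had no MA peak and an NC peak of fold 1.56. Of the subunits encoded in mitochondrial DNA, 9 of 13 had peaks in each list, 11 in MA with folds from 1.93 to 3.68 and 11 in NC with folds from 2.26 to 4.10.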

How the data were processed

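Input and m6A immunoprecipitate libraries of OMM2.3 cells after 24 h with MA or DMSO (NC), 1 of each, were compared. The build is GRCh38.p13 and the tools are ChIPseeker, deepTools, HISAT, HISAT2 and Trimmomatic, without versions, per the submitters' processing notes. Read counter, peak caller and strand setting: not given in the sources used here. FPKM values per gene were computed by the authors from the inputs. Fold enrichment (a ratio), p-value, false discovery rate, exonic length and feature of each peak are the authors' deposited values, per the file headers.

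Whole reads were recovered from the FPKM values with Python 3.11.15, numpy 2.4.6, pandas 2.3.3 and scipy 1.17.1. Of 13055 genes above 0 in both inputs, 99.7% gave whole reads within rounding. The totals were chosen as those that made the most lengths equal to the RefSeq span, 225, so this count is not separate support for them. Repeated peak rows, 85 in MA and 113 in NC, were counted once, and starts were raised by 1. Regions are peaks merged per list and strand, shared at an overlap of at least 1 base of the genomic span, introns included, on the same strand. Intervals are exact Clopper-Pearson intervals. Read recovery and the 2-fold counts were tested on simulated reads, and the peak, region and promoter steps were not.

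Named are members past 2-fold, per group the 3 with the largest absolute differences and the 1 with the highest level, isoform sets, members with a peak in a single list, those with the highest fold or most peaks, and 3 per related list. Other members are named for their role, chosen after their values were seen. The members and lists were chosen with earlier results of these data known. A complex I gene counted in its groups is not reported here by itself.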

Additional observations from a re-analysis of the deposited data

Results flagged for a closer look

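The peak lists held peaks for ATP5MF-PTCD1, a read-through gene of ATP5MF and its neighbour PTCD1 that is not in the gene table, so no input level stands beside them. It had 4 peaks in the MA list, with folds from 3.36 to 5.22, and 5 peaks in the NC list, with folds from 1.77 to 6. ATP5MF itself, a small membrane subunit of ATP synthase, was at 107 FPKM in MA and 109.8 FPKM in NC and had no peak in either list.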

How the results depend on the processing

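The count of members 2-fold or more higher in MA was 0 and became 1 in TPM, where NDUFA12 reached a difference of 1.01. Over all genes compared, the count higher was 1087 and became 1793 in TPM. The count of members 2-fold or more lower was 1 and became 2 with the median of all genes set to 0, where ATP5MC1 reached -1.07. Over all genes compared, the count lower was 315 and became 439 there. The same setting moved the members' median difference to -0.34. Under the other pseudocounts, filters and scalings, and for structural genes alone, that median lay between -0.25 and -0.16. It was -0.23 without ATP5MF, NDUFC2, UQCRH and UQCRHL, a setting chosen after seeing the data. Members below 0 numbered from 62 to 68 over the settings. Of single members' values under these settings, 437 stayed within the half-width of their counting interval and 130 moved further. The 437 include the filter settings, which cannot change the value of a single member. No value past 2-fold changed sign, and on the main scale COX6A2 alone was past it.

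The peak counts depended on the lists' threshold. In the 50% of each list with the higher fold, 10 of 95 members had a peak in MA and 12 in NC, with 3 in MA alone and 5 in NC alone. Of all genes compared, 52.1% in MA and 55.5% in NC had a peak there. The share with a peak in a single list alone was not computed over all genes in this setting or those that follow. Of the members' regions, 60% in MA and 37.5% in NC were shared, against 68.0% and 63.4% of all regions. At a false discovery rate of 1e-10 or lower, they were 3 in MA and 2 in NC, all of these in MA alone (3) or NC alone (2), against 4.21% in MA and 4.203% in NC of all genes compared. At that rate 0% of their MA regions and 0% of their NC regions were shared, against 24.8% and 24.5% of all. With both lists at equal length, 36 members had a peak in MA and 31 in NC, 10 in MA alone and 5 in NC alone, so the larger numbers in NC turned round. The shares over all genes compared, then 80.0% in MA and 78.9% in NC, turned round too. Within single exons, 47.1% of their MA regions and 40.0% of their NC regions were shared, against 69.5% and 59.5% of all. With an overlap of 50% of both regions required, the members' shares were the higher ones. They were 59.1% in MA and 52% in NC, against 51.2% and 46.3% of all regions. The causes were not tested. Overlap by exon blocks was not run, since the lists give no blocks. No paired analysis was possible because each group had 1 library. Depth limits COX6B2, with 8 reads in MA and 3 in NC, and NDUFA4L2, with 2 in MA and 5 in NC, most, and COX6A2 among the members compared. Without a second library the spread between cultures is unknown.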
